A study of Mus musculus with 2 samples.

Results

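The miR-17-92 cluster is a set of 6 miRNA hairpins (Mir17, Mir20a, Mir18, Mir19a, Mir19b-1 and Mir92-1) that lie in 1 transcript, Mir17hg, on mouse chromosome 14. The 6 loci were taken by gene identifier from 1973 miRNA loci with read counts, and all 6 had at least 10 reads in each library, as did 397 loci in all. The libraries were made from midbrain of mouse embryos of the strain B6NCrl at 14.5 days, from RNA below 30 nt. They form 1 untreated group of 2 biological replicates, so there was no contrast between conditions. Each replicate is labelled as the midbrain of a single pup, with a different collection date for each, yet sex is given as mixed and 1 donor identifier is shared, so the SDs here may not measure variation between animals. Midbrain holds many cell types, and fewer cells of a type cannot be told apart from less RNA per cell.

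The cluster is transcribed as 1 long precursor, which the Microprocessor complex of Drosha and Dgcr8 cuts into hairpins that Dicer then trims to mature miRNAs. The loci belong to 4 seed families, the seed being the bases of the mature miRNA that pair with target mRNAs. The cluster is known as a target of Myc and E2F factors, for its role in B cell, lung and heart development, and for activity in dividing neural progenitors. The miR-17 family is known for repressing Cdkn1a and Bcl2l11.

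The mature miRNAs of the arms that the cluster is known for are shown to let their seeds be compared. Sequences are those of RefSeq on assembly GRCm38.p6, 5′ to 3′, with bases 2 to 8 in capitals. All 6 hairpins matched the RefSeq table by symbol and position.
miR-17-5p: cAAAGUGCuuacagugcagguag
miR-20a-5p: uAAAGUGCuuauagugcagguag
miR-18a-5p: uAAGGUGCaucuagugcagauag
miR-19a-3p: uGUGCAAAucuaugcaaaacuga
miR-19b-3p: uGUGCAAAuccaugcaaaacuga
miR-92a-3p: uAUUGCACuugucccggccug

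Mir17 and Mir20a carry the same seed, and Mir19a and Mir19b-1 carry another. Counted from the 5′ end, miR-20a-5p differs from miR-17-5p by C1U and C12U, and miR-19b-3p differs from miR-19a-3p by U11C alone. All of these changes lie outside bases 2 to 8. The counts are per hairpin and do not tell its arms apart.

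Mir17hg (ENSMUSG00000089726.2 in GENCODE M21) spans chr14:115042879-115046727 on the plus strand of mm10, and all 6 hairpins lie in its exon 2. Mir17 (ENSMUSG00000065508.1) lies at chr14:115043671-115043754 and Mir18 (ENSMUSG00000065403.1) at chr14:115043851-115043946. Mir19a (ENSMUSG00000065416.1) lies at chr14:115044000-115044081 and Mir20a (ENSMUSG00000065442.1) at chr14:115044157-115044263. Mir19b-1 (ENSMUSG00000076256.1) lies at chr14:115044305-115044391 and Mir92-1 (ENSMUSG00000076062.1) at chr14:115044427-115044506. The cluster covers 836 bases, with gaps between neighbouring hairpins of 35 to 96 bases. Mir17 begins 792 bases from the start of the host gene and Mir92-1 begins 1548 bases from it.

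The 6 loci of this transcript differed widely in level, from the 8th highest locus of the midbrain libraries to the 298th. Levels are sense reads, those on the annotated strand, per 1000000 sense reads at all miRNA loci (CPM), with the mean ± SD over the replicates (n = 2). They were not divided by hairpin length, since the mature arms are all 21 to 23 nt long. Whether the libraries captured each sequence equally well was not tested, and an SD between replicates does not measure it. Mir17, the first hairpin, had 223364 reads in replicate 1 and 110174 in replicate 2, which were 30587 and 27775 CPM (29181 ± 1989 CPM). Mir20a, of the same seed, had 82396 and 39212 reads, or 11283 and 9885 CPM (10584 ± 988 CPM). Mir18, the source of miR-18a, had 48827 and 26856 reads, or 6686 and 6770 CPM (6728 ± 59.5 CPM). These 3 loci ranked 8th, 20th and 28th by mean level and held 96.7% of the cluster's counted reads in each library. That total may lack reads of the arms that Mir19b-1 and Mir92-1 share with paralogs.

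Mir92-1, the last hairpin, had 11568 and 5652 reads, or 1584 and 1425 CPM (1504 ± 113 CPM), and ranked 77th. Mir19a had 444 and 287 reads, or 60.8 and 72.4 CPM (66.6 ± 8.17 CPM), and ranked 232nd. Mir19b-1 was the lowest of the cluster, with 87 and 79 reads, or 11.9 and 19.9 CPM (15.9 ± 5.66 CPM). Both miR-19 loci thus had at most 444 reads in a library, while each of their neighbours on either side had at least 5652. They still stood above the level of 3 reads, 0.411 CPM in replicate 1 and 0.756 CPM in replicate 2.

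**Figure D1:**
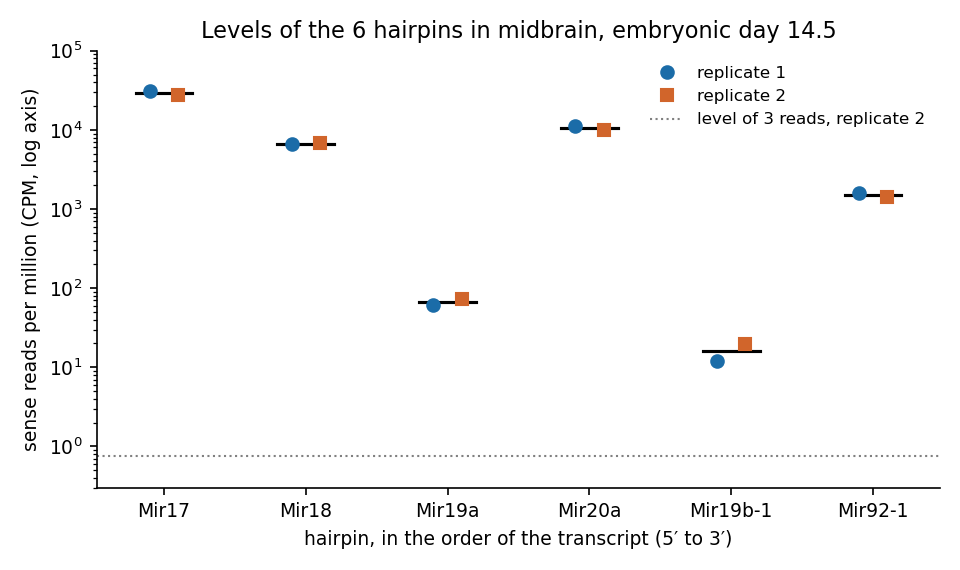
Sense CPM (log axis) of the 6 hairpins, in transcript order, for replicate 1 (circles) and replicate 2 (squares); black lines are means and the dotted line is the level of 3 reads in replicate 2 (0.756 CPM). Mir19a and Mir19b-1 sit at 60.8 to 72.4 and 11.9 to 19.9 CPM, below the other 4 hairpins in both libraries.

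The order of levels was the same in both libraries: Mir17, Mir20a, Mir18, Mir92-1, Mir19a and Mir19b-1. In each of the 5 steps the gap between the means was larger than the SD of either neighbour, and their values did not overlap. Within a library, Mir17 was 2.71 and 2.81 times Mir20a, a ratio of 2.76 ± 0.0699. The smallest step was from Mir20a to Mir18, at 1.69-fold in replicate 1 and 1.46-fold in replicate 2. Mir18 exceeded Mir92-1 by 4.22-fold and 4.75-fold. The largest step was from Mir92-1 to Mir19a, at 26.1-fold and 19.7-fold, and Mir19a in turn exceeded Mir19b-1 by 5.10-fold and 3.63-fold. From the highest to the lowest locus the ratio was 2567 in replicate 1 and 1395 in replicate 2 (1981 ± 829). With 2 replicates an exact sign-flip permutation test cannot give a two-sided p below 0.5, so no order was tested. The places of Mir92-1 and Mir19b-1 rest on counts that may lack reads of an arm shared with a paralog.

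Level did not follow position along the transcript. Mir19a, at 1121 bases from the start of the host gene, lies between Mir18 at 972 bases and Mir20a at 1278 bases, and both of these neighbours were higher. Mir18 exceeded Mir19a 102 ± 11.6-fold and Mir20a exceeded it 161 ± 34.6-fold. Mir19b-1, at 1426 bases, lies between Mir20a and Mir92-1, and Mir92-1 exceeded it 133-fold in replicate 1 and 71.5-fold in replicate 2. The counts of Mir19b-1 and Mir92-1 may lack reads of an arm shared with a paralog, so this fold holds for the counted reads only. Mir17 and Mir20a, which share a seed, differed 2.76-fold on average.

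**Figure D2:**
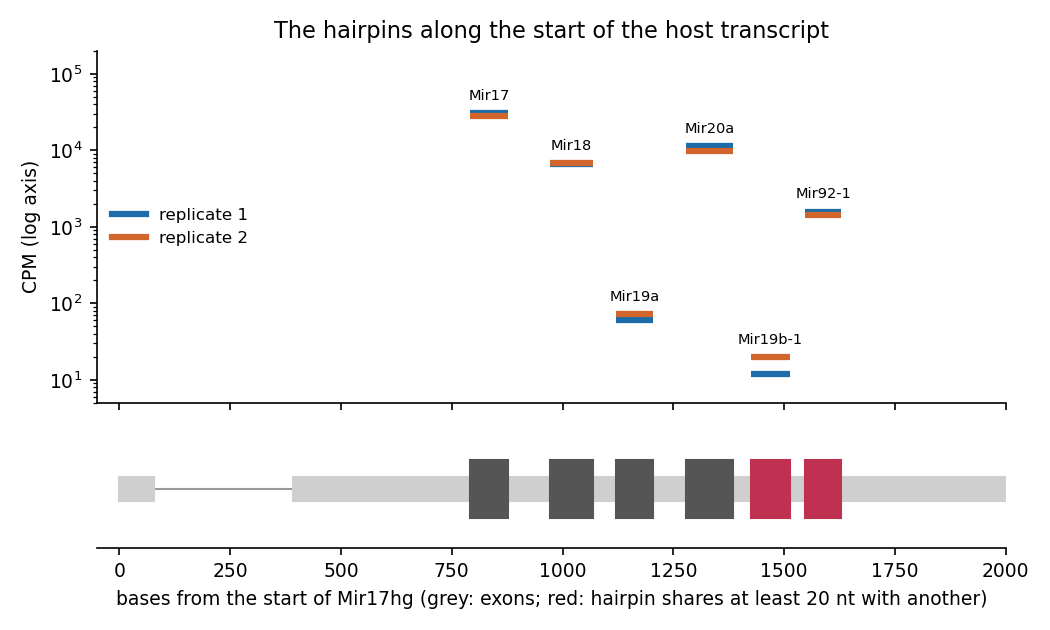
CPM (log axis) of each hairpin in replicates 1 and 2, drawn at its distance in bases from the start of Mir17hg, above a map of the exons (grey) and hairpins, to scale. The hairpins in red, Mir19b-1 and Mir92-1, share at least 20 nt with another hairpin, and their counts may lack reads of a shared arm. Counted levels fall to Mir19a, rise at Mir20a, fall to Mir19b-1 and rise at Mir92-1.

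As shares of the cluster's own counted reads, which need no scaling between libraries, the 4 higher loci repeated more closely than the miR-19 loci. The counts of Mir19b-1 and Mir92-1, and so the total, may lack reads of an arm shared with a paralog. Mir17 held 60.9% in replicate 1 and 60.4% in replicate 2, with 95% intervals (exact, Clopper-Pearson) of 60.8 to 61.1 and 60.2 to 60.7. Mir20a held 22.5% (22.3 to 22.6) and 21.5% (21.3 to 21.7), and Mir18 held 13.3% (13.2 to 13.4) and 14.7% (14.6 to 14.9). Mir92-1 held 3.15% (3.10 to 3.21) and 3.10% (3.02 to 3.18), the only locus of the 6 whose intervals overlapped. Mir19a held 0.121% (0.110 to 0.133) and 0.157% (0.140 to 0.177), and Mir19b-1 held 0.0237% (0.0190 to 0.0293) and 0.0433% (0.0343 to 0.0540). The shares of both miR-19 loci and of Mir18 were thus higher in replicate 2, and those of Mir17, Mir20a and Mir92-1 were lower. Intervals cover the counting error of reads only. PCR copies of a molecule are counted as separate reads, so the intervals may be too narrow even for that error.

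For 2 of the 6 loci the mature miRNA cannot be assigned to the cluster from its sequence. miR-19b-3p occurs in the hairpins Mir19b-1 and Mir19b-2, and miR-92a-3p in Mir92-1 and Mir92-2. The partners lie in the paralogous Mir106a-363 cluster on the X chromosome. The hairpins are shown with the longest stretch that each pair shares in capitals, 25 nt for the miR-19b pair and 22 nt for the miR-92a pair; both stretches hold the whole mature miRNA.
Mir19b-1: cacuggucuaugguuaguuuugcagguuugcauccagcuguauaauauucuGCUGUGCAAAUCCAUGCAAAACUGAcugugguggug
Mir19b-2: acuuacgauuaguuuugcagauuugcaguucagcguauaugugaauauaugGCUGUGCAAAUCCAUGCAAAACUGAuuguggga
Mir92-1: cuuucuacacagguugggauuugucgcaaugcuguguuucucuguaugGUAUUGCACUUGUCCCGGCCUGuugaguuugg
Mir92-2: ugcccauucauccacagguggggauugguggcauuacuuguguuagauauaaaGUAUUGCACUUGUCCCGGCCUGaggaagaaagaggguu

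Reads that mapped to more than 1 place were held in a class of their own, which made up 36.2% of all reads in replicate 1 and 36.9% in replicate 2. The counts of Mir19b-1 and Mir92-1 therefore need not hold the reads of their shared arm. The other arms of these hairpins, shown with bases 2 to 8 in capitals, each occur in 1 annotated hairpin only.
miR-19b-1-5p: aGUUUUGCagguuugcauccagc
miR-92a-1-5p: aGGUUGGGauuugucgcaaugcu

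How many of the counted reads came from each arm was not tested. The remaining 4 loci, Mir19a among them, have no exact stretch of 20 nt in another annotated hairpin, and their mature sequences each occur in 1 hairpin. The longest stretch that Mir19a shares with another hairpin is 13 nt, with Mir19b-2. Copies outside annotated hairpins were not searched. Of all 1973 loci 47.1% had such a stretch of 20 nt, and of the 397 detected loci 21.7%.

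The hairpins resembled each other only in part. Identity over a global alignment was highest for Mir19a and Mir19b-1 at 67.8%, followed by Mir17 and Mir18 at 62.5% and Mir17 and Mir20a at 60.2%. The other 12 pairs lay between 46.6% for Mir19a and Mir92-1 and 59.6% for Mir18 and Mir20a. Against the paralogs, Mir19b-1 and Mir19b-2 were 75.0% identical, Mir18 and Mir18b 70.8%, and Mir17 and Mir20b 69.8%. Next came Mir19a and Mir19b-2 at 66.7% and Mir92-1 and Mir92-2 at 64.9%. GC content ran from 43.7% in Mir19b-1 to 47.5% in Mir92-1, and length from 80 nt in Mir92-1 to 107 nt in Mir20a. The minimum free energy of folding, predicted with RNAfold, was -38.7 kcal/mol for Mir19a, -37.8 for Mir19b-1, -36.7 for Mir17, -38.6 for Mir20a, -34.0 for Mir92-1 and -29.2 for Mir18. Mir18 was thus the hairpin with the weakest predicted fold, but total energy also depends on length. Per 10 nt it was -4.72 for Mir19a, -4.37 for Mir17, -4.34 for Mir19b-1, -4.25 for Mir92-1, -3.61 for Mir20a and -3.04 for Mir18. By that measure Mir17 and Mir19b-1 were nearly alike. A relation of predicted folding to the counts was not tested.

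The cluster as a whole repeated between the libraries to within 1.17-fold, with 366686 reads in replicate 1 and 182260 in replicate 2. The log2 ratio of replicate 2 to replicate 1, after library sizes were scaled with TMM, was -0.22 (95% interval from counting error -0.23 to -0.21). By locus it was -0.23 for Mir17, -0.29 for Mir20a, -0.25 for Mir92-1 and -0.08 for Mir18. It was 0.16 (-0.06 to 0.37) for Mir19a and 0.65 (0.19 to 1.10) for Mir19b-1. With plain totals, which shift the median over all detected loci to 0.09, Mir18 stood at 0.02, so the sign of its ratio rests on the scaling.

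Of the 6 loci 1, Mir19b-1, differed between the libraries by more than 1.5-fold, at 1.57-fold, against 16.6% of the 397 detected loci (7.05% higher in replicate 2, as Mir19b-1 was, and 9.57% higher in replicate 1). Its interval reaches well below that fold. Among detected loci with a mean of up to 100 CPM, the range that holds Mir19a and Mir19b-1, 27.3% were past 1.5-fold, and among those above it 7.14%. The median absolute log2 ratio was 0.24 over the 6 loci and 0.23 over all detected loci. Mir19b-1 is not tested where at least 100 reads are required in each replicate, and then 0 of 5 loci were past 1.5-fold, against 9.49% of 274.

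**Figure D3:**
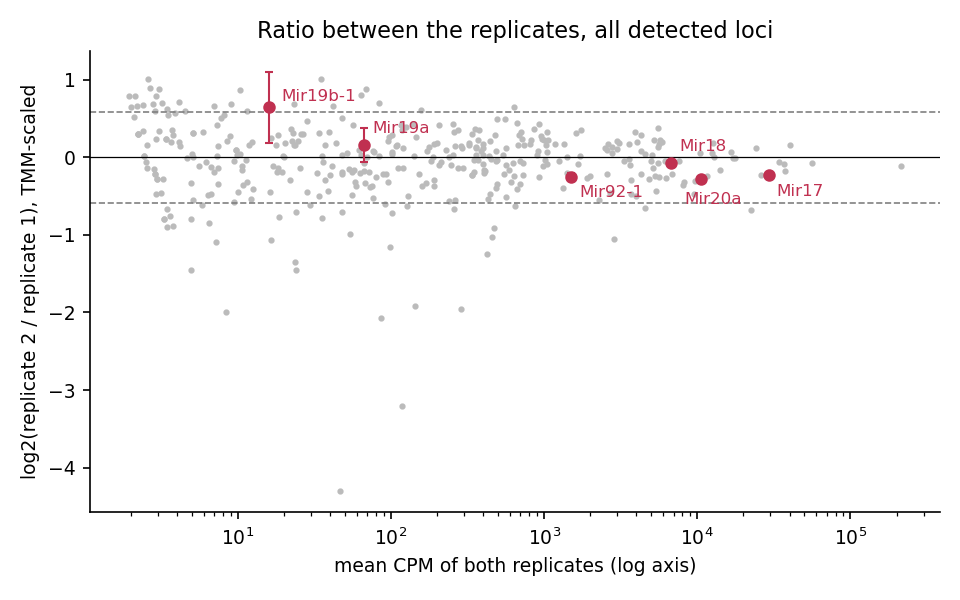
Log2 ratio of replicate 2 to replicate 1 after TMM scaling against mean CPM (log axis) for 397 detected loci (grey) and the 6 hairpins of the cluster (red, with 95% intervals from counting error); dashed lines mark 1.5-fold. Mir19b-1 at 0.65 lies past the line, and the other 5 hairpins lie between -0.29 and 0.16.

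Markers of cell types differed between the libraries to unlike degrees, and Mir9-1, Mir142 and Mir1a-2 of the lists had no count. Neural loci summed to 35397 and 40285 CPM in replicates 1 and 2, with 7 of 9 detected, led by Mir149 and Mir137. Their log2 ratios after TMM scaling went both ways. They were 0.20 for Mir153, 0.18 for Mir137, 0.17 for Mir128-1 and 0.02 for Mir9-3. Mir149 stood at -0.01, Mir124a-2 at -0.03, Mir124a-1 at -0.47, Mir124a-3 at -0.72 and Mir9-2 at -2.27. The Mir124a loci and Mir9-2 had at most 11.6 CPM. Reads that mapped to more than 1 place are not counted, so loci that share a mature miRNA may lack its reads. Which marker loci do so was not tested. The endothelial Mir126a stood at 27037 and 18011 CPM, the 3 red cell loci, all detected, summed to 486 and 153 CPM, and the myeloid Mir223 stood at 212 and 24.5 CPM. Of 4 muscle loci 1 was detected, Mir206, and the list summed to 23.0 and 30.0 CPM; Mir133a-1 and Mir133a-2 had no read. The liver miRNA Mir122 stood at 14.1 and 10.3 CPM. Of the red cell sum most was Mir451a, at 447 and 123 CPM, while Mir486 stood at 9.86 and 10.8 CPM. After TMM scaling the log2 ratio was -0.68 for Mir126a, -0.70 for Mir144, -1.95 for Mir451a and -3.21 for Mir223, but 0.04 for Mir486. In the cluster it was -0.29 for Mir20a, -0.25 for Mir92-1, -0.23 for Mir17 and -0.08 for Mir18, but 0.16 for Mir19a and 0.65 for Mir19b-1. The part of these cells in the cluster's ratios was not tested.

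The seeds of the cluster are also carried by other loci, mostly in the paralogous clusters Mir106a-363 on the X chromosome and Mir106b-25 in the gene Mcm7. The cluster's summed level was 50213 and 45947 CPM. That was 2.03 and 1.69 times the level of Mir106b-25, which summed to 24747 and 27110 CPM, and 24.4 and 27.3 times that of Mir106a-363, which summed to 2062 and 1683 CPM. The sums of the cluster and of Mir106a-363 may lack reads of the arms that they share, so these folds hold for the counted reads only. The gap to Mir106b-25 was narrower in replicate 2, where the cluster was lower and its paralog higher. After TMM scaling, which these CPM values do not carry, the log2 ratio of replicate 2 to replicate 1 was 0.04 (0.03 to 0.05) for Mir106b-25 and -0.39 (-0.43 to -0.35) for Mir106a-363.

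Among reads assigned to single loci, which leave out those of miR-19b-3p and miR-92a-3p that map to more than 1 hairpin, the miR-17 seed had the highest total of the cluster's 4 seeds, with 67162 and 64844 CPM over its 7 loci. Mir17 and Mir20a supplied 62.3% of these reads in replicate 1 and 58.1% in replicate 2, with exact intervals of 62.2 to 62.5 and 57.9 to 58.3. Most of the rest came from Mir93 and Mir106b, at 12813 ± 640 and 12435 ± 905 CPM. Mir20a was below both in each library. Mir106a and Mir20b of the X chromosome followed at 561 ± 115 and 429 ± 92.7 CPM, and Mir6383, which carries the same seed by RefSeq, had no read.

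The mature miRNAs of these 4 paralogs are shown because they differ from miR-17-5p at few bases, all outside the capitals.
miR-93-5p: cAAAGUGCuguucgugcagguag
miR-106b-5p: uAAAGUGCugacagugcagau
miR-106a-5p: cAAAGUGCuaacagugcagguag
miR-20b-5p: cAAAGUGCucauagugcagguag

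From miR-17-5p, miR-106a-5p differs by U10A alone and miR-20b-5p by U10C and C12U. miR-106b-5p differs over its 21 bases by C1U, U10G and G20A, and miR-93-5p by U10G, A11U, C12U and A13C. Mir106a, whose mature miRNA is the nearest to miR-17-5p of these 4, was counted at 561 CPM against 29181 CPM for Mir17.

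The other 3 seeds were divided differently between the cluster and its paralogs. For the miR-18 seed, Mir18 supplied 98.6% and 98.8% of 49505 and 27195 reads, and Mir18b, at 89.2 ± 5.22 CPM, supplied the rest. For the miR-19 seed the 3 loci together had 561 and 377 reads, of which Mir19a and Mir19b-1 held 94.7% (92.5 to 96.4) and 97.1% (94.8 to 98.5). Mir19b-2 had 30 and 11 reads. The counts of all 3 loci were thus low, within the cluster and outside it, and reads of miR-19b-3p that map to both Mir19b loci are not among them.

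For the miR-92 seed Mir92-1 supplied 21.3% (21.0 to 21.7) and 22.1% (21.6 to 22.6) of 54239 and 25602 reads. Mir92b, a locus outside these clusters, was the highest of that family at 3674 ± 679 CPM, above Mir92-1 in both libraries. Mir363 followed at 722 ± 45.9 CPM, Mir25 at 680 ± 125 CPM, Mir32 at 292 ± 31.3 CPM and Mir92-2 at 67.3 ± 7.84 CPM, while Mir367 had 0 and 1 reads. The order of Mir363 and Mir25 was not resolved, since the gap between them was smaller than the SD of Mir25. The reads of miR-92a-3p that map to both Mir92-1 and Mir92-2 are outside these shares and CPM values. The place of Mir92b above Mir92-1 therefore holds for the counted reads only.

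**Figure D4:**
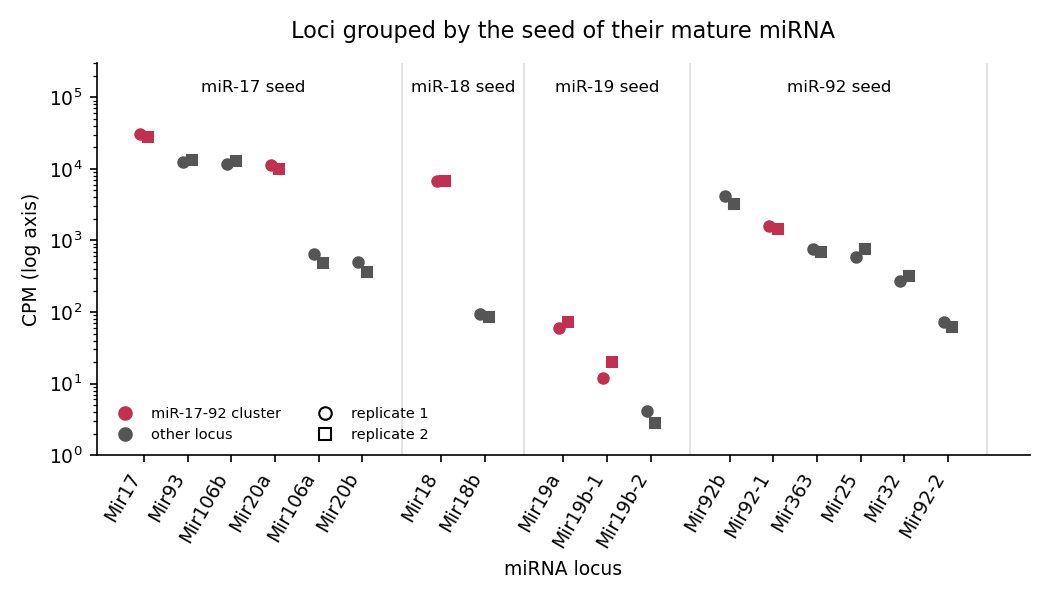
CPM (log axis) of loci grouped by the seed of their mature miRNA, for replicate 1 (circles) and replicate 2 (squares), with the cluster in red and other loci in grey; Mir6383 and Mir367, with no read in at least 1 library, are not drawn. By counted reads the cluster leads the miR-17, miR-18 and miR-19 groups, whereas Mir92b, at 3674 CPM, leads the miR-92 group. Counts of Mir19b-1, Mir19b-2, Mir92-1 and Mir92-2 may lack reads of a shared arm.

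The loci closest in mean level to each hairpin came from other families. Mir17 stood between Mir30e at 29989 ± 1722 CPM and Mir99b at 25979 ± 1707 CPM, Mir20a between Mir30a and Mir181d, and Mir18 between Mir130b and Mir322. Mir92-1 stood between Mir154 and Mir188, Mir19a between Mir27a and Mir551b, and Mir19b-1 between Mir5113 and Mir200c. Of these 12 neighbours 11 differed from the hairpin by less than the larger of the SDs, Mir99b being the exception. Between the libraries the rank moved by at most 4 places for the 4 higher hairpins, from 237th to 223rd for Mir19a and from 302nd to 285th for Mir19b-1. With 2 libraries a likeness of pattern across samples could not be measured.

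No read was counted on the opposite strand of any of the 6 hairpins, which allows a share of up to 0.000818% of the cluster's reads in replicate 1 and 0.00165% in replicate 2. Over all loci the opposite strand held 2.02% and 2.07% of the reads, spread unevenly between loci. Mir299b alone had 4620 and 2246 such reads, while Mir30e and Mir99b, next to Mir17 in level, and the paralogs Mir93 and Mir106b had none. The lack of such reads was therefore not particular to the cluster.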

How the data were processed

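The authors deposited 1 table per library with raw counts of reads per miRNA gene, for both strands together, the annotated strand and the opposite strand. The assembly was mm10 and the annotation M4, per the notes deposited beside the counts; the aligner and counter were not given in the sources used here. Read classes outside genes were left out: unmapped reads were 19.0% and 18.5%, and reads in no miRNA gene 3.10% and 2.17%. The sense totals were 7302633 and 3966727 reads, so 1 read equalled 0.137 and 0.252 CPM.

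Symbols and positions were taken from GENCODE M21 (also mm10), where 1894 of 1973 loci matched. CPM was computed over all sense reads. Ratios used TMM in edgeR 4.0.16 over detected loci (10 reads or more in both replicates), with exact binomial 95% intervals. These were tried on simulated counts that held sampling noise only, which cannot show how well they cover in these libraries. Copies were exact stretches of 20 nt in a hairpin that does not overlap, on either strand. Folds used ViennaRNA 2.7.2 and alignments Biopython 1.88. The libraries differed by more than sampling noise: the chi-square of their counts was 132 times its degrees of freedom. The rule named the 6 loci, their paralogs, loci of the same seed and the loci next in level. The members, lists and rules were chosen with earlier results of these data known. There being 1 group, conditions were not compared. Alternatives were DESeq2 1.42.0 size factors, other totals, filters, folds and stretch lengths, leaving out each replicate, and the unstranded count.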

Additional observations from a re-analysis of the deposited data

How the results depend on the processing

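The cluster's share of the sense reads, 4.81% ± 0.302, was 6.12% with Mir99a left out of the total and 1.98% of every read in the library, unmapped and multiply mapped reads included; both changes follow from the size of the total. It stayed within 1 SD with the unstranded count, DESeq2 size factors and a total over detected loci, and was 4.59% and 5.02% with each replicate left out, a move that with 2 replicates is always below the SD. The ratio of the highest to the lowest locus was 1395 without replicate 1 and 2567 without replicate 2, a difference of 1.84-fold between the replicates. The number of loci past 1.5-fold, 1, was 0 at a threshold of 2-fold and 0 with at least 100 reads in each replicate, where Mir19b-1 is not tested. Over all loci 4.28% and 9.49% were then past the fold. It was 1 under DESeq2 size factors and plain totals (16.6% of all loci each), the unstranded count (16.8%) and no filter (43% of 746 loci). Stretches of 18 and 22 nt gave the same 2 loci with a copy. Of 32 recomputed levels and copy counts, replicates left out apart, 19 moved by less than the replicate SD or not at all and 13 by more, 11 of these through the total without Mir99a or the total of every read. No paired analysis was possible because there is a single group. Mir19b-1 had the fewest reads of the cluster, 87 and 79, and its count may also lack reads of the arm shared with Mir19b-2. Both limits apply to the ratio of the highest to the lowest locus. The cluster's share may likewise lack reads of the arms that Mir19b-1 and Mir92-1 share with paralogs.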
